A study of Rattus norvegicus with 24 samples.

Results

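The 10 libraries described here are the tissue punches of the ventral tegmental area (VTA) in a rat RNA-seq series of 24 libraries, put in order by the level of Slc6a3, the dopamine transporter gene. They comprise 5 libraries from MOR-sired and 5 from SAL-sired offspring, first-generation rats described as male and at least 60 days old, sired by males that self-administered morphine (MOR) or saline (SAL) over 60 days. The other 14 libraries are punches of the nucleus accumbens (NAC). Libraries were prepared from total RNA of bilateral punches by a strand-preserving (directional) method. They are described as biological replicates without an animal or litter, so each p-value measures the spread between these libraries. All genes with a mean of at least 1 CPM (estimated counts per 1e6 of the library sum) were then correlated with Slc6a3. Of 16318 such genes, 208 had a Pearson r of at least 0.8 with Slc6a3 over all 10 libraries and also within the 5 MOR-sired and the 5 SAL-sired libraries, and are called followers below.

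Dopamine neurons of the VTA make dopamine from tyrosine with tyrosine hydroxylase (Th) and aromatic amino acid decarboxylase (Ddc), load it into vesicles with the monoamine transporter Slc18a2, and take it back up after release with Slc6a3. Their axons reach the NAC, and this pathway takes part in reward and in the response to opioids. A VTA punch also holds GABA neurons, glutamatergic neurons, glia and vessels, and its edges lie near serotonin neurons of the raphe. In bulk tissue, fewer dopamine neurons and less RNA per dopamine neuron cannot be told apart.

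The dopamine neuron markers were present in every VTA library. Slc6a3 stood at 1070 to 2091 CPM in MOR-sired VTA and at 874 to 2117 CPM in SAL-sired VTA, and at 0 to 0.667 CPM in the NAC libraries. In rising order of Slc6a3, SAL-sired VTA 3 had 874 CPM, MOR-sired VTA 2 had 1070, SAL-sired VTA 4 had 1206, SAL-sired VTA 2 had 1357, MOR-sired VTA 1 had 1444, MOR-sired VTA 5 had 1493, MOR-sired VTA 4 had 1700, SAL-sired VTA 1 had 1788, MOR-sired VTA 3 had 2091 and SAL-sired VTA 5 had 2117. The sire groups were mixed along this order, and the highest library held 2.42 times the Slc6a3 of the lowest.

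Some libraries stood apart in other ways. In 4 libraries (MOR-sired VTA 3, MOR-sired VTA 4, MOR-sired VTA 5 and SAL-sired VTA 5) the X-inactivation transcript Xist stood at 78.9 to 108 CPM and Ddx3y of the Y chromosome at no more than 0.072 CPM, which goes against the label male. Xist stood at no more than 0.25 CPM in the other 6. Slc6a3 ran from 1493 to 2117 CPM in the 4 and from 874 to 1788 CPM in the 6. Within each sire group every high-Xist library stood above every low-Xist library in Slc6a3. In MOR-sired VTA these were libraries 5, 4 and 3 at 1493, 1700 and 2091 CPM, above 1070 and 1444 CPM. In SAL-sired VTA it was library 5 at 2117 CPM, above at most 1788 CPM. An r within a sire group can therefore not be fully told apart from this difference in Xist. The serotonin enzyme Tph2 was at 0.573 and 0.330 CPM in SAL-sired VTA 3 and 4 and at 14.9 to 156 CPM elsewhere. The same 2 libraries had the most Slc17a6, the vesicular glutamate transporter of subcortical neurons, at 130 and 123 CPM, against 20.6 to 62.2 CPM elsewhere, and the least Gad1, a GABA-synthesising enzyme, at 59.6 and 56.0 CPM, against 86.9 to 131 CPM. Library totals were 23.6 to 43.5 M in MOR-sired VTA and 25.2 to 41.5 M in SAL-sired VTA. The log2 total and log2 Slc6a3 had r = 0.26 and Spearman's rho = 0.36 over the 10 libraries. The part of these differences in the order was not tested.

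The core dopamine genes rose with Slc6a3. In order of rising Slc6a3, Th stood at 1398, 2098, 2536, 2784 and 2632 CPM in MOR-sired VTA and at 1293, 1504, 1753, 2282 and 2881 CPM in SAL-sired VTA. Slc18a2 stood at 420, 602, 546, 636 and 606 CPM in MOR-sired VTA and at 322, 358, 544, 655 and 710 CPM in SAL-sired VTA. Ddc had 543, 737, 658, 804 and 769 CPM in MOR-sired VTA and 421, 466, 629, 787 and 880 CPM in SAL-sired VTA. In SAL-sired VTA each of the 3 genes climbed at every step, while in MOR-sired VTA the lowest library stood below the other 4, which were not in the order of Slc6a3. Over the 10 libraries Th had r = 0.93, Slc18a2 0.91 and Ddc 0.93, and Spearman's rho was 0.939 for both Th and Slc18a2. Among the 4 MOR-sired libraries left without MOR-sired VTA 2, r was 0.60 for Th, 0.41 for Slc18a2 and 0.55 for Ddc. With TMM scaling the r in MOR-sired VTA was 0.82 for Th, 0.77 for Slc18a2 and 0.78 for Ddc. Slc18a2 and Ddc then fell below the threshold of 0.8. These values use the same libraries and the same gene that chose the followers, so they are given as description, with no test.

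The stretches of 250 bases before the transcription start of these 3 genes are printed because they are the biosynthetic and storage core of the set (RefSeq, GRCr8, 5′ to 3′ towards the start). Th lies at chr1:207508219-207508468 on the minus strand, Slc18a2 at chr1:268399771-268400020 on the plus strand and Ddc at chr14:90682784-90683033 on the minus strand. Capitals mark the cyclic AMP response element TGACGTCA in Th and Slc18a2, and in Ddc the NR4A motif AAAGGTCA read on the opposite strand.
Th: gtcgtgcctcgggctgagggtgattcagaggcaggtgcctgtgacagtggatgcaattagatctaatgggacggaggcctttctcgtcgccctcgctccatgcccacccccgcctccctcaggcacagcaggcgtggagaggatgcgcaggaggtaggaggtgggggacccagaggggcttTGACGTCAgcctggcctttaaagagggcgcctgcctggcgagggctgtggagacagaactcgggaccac
Slc18a2: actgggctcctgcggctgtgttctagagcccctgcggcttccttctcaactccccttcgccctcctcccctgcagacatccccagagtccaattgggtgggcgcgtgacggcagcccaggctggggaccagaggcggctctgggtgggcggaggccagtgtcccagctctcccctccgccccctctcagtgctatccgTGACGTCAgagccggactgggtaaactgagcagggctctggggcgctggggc
Ddc: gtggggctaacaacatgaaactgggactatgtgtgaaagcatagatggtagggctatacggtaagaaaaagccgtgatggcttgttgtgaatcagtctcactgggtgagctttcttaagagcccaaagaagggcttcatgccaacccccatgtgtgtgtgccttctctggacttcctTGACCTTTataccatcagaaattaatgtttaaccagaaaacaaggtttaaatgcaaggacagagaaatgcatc
The table held promoters (250 bases before to 50 after the start) of 157 followers and of 12776 tested genes, and both strands were searched. The cyclic AMP response element, added to the search after these sequences were read, was in 8 follower promoters (5.10%) and in 2.93% of all. The LIM homeobox motif TAATTA was in 7 follower promoters (4.46%) and in 2.43% of all. The PITX motif TAATCC was in 9 (5.73%) and in 5.46% of all. The NR4A motif was in 1 (0.637%) and in 0.931% of all, and the FOX motif TGTTTAC in 1 (0.637%) and in 2.37% of all. A match is a stretch of letters and not evidence of binding.

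The followers were 1.27% of the genes tested, chosen by r itself. Of the 208, 206 (99.0%) were protein coding, against 87.7% of all genes tested. Their mean level ran from 1.19 to 2299 CPM with a median of 43.5 CPM, against 17.7 CPM for all genes, and 62 of them were above 100 CPM. Together they held 2.42% to 3.85% of a library's counts. Just inside the threshold, the smallest of the 3 r values was 0.801 for Fbxl2, 0.801 for Mob3c and 0.8004 for Pald1, and just outside the values of Ap2a2, Cadm3 and Insyn2b lay less than 0.001 below the threshold.

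The list depended on 1 library and on the scaling. Over all 16318 genes the median r with Slc6a3 was 0.04 over 10 libraries, 0.45 in MOR-sired VTA and -0.18 in SAL-sired VTA. With TMM scaling these medians were 0.08 over all, 0.12 in MOR-sired and 0.14 in SAL-sired VTA. MOR-sired VTA 2, second lowest in Slc6a3, had the lowest TMM factor at 0.852. With TMM scaling 278 genes followed, of which 154 were among the 208, which is 74.0% of the 208 and 55.4% of the 278. Without MOR-sired VTA 2, 95 genes followed, 89 of them among the 208. A group of 66 followers kept its place in all 10 sets that leave out 1 library and under both TMM and DESeq2 size factors. The 25 genes ranked next are all in this group, while Th, Slc18a2 and Ddc are not.

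The 25 genes that followed most closely, ranked by the smallest of their 3 r values (0.945 to 0.989), are given here by what they encode. Chrm5, the muscarinic M5 acetylcholine receptor, came first. It stood at 15.5, 19.2, 21.0, 21.5 and 26.0 CPM in MOR-sired VTA and at 12.9, 16.5, 19.1, 23.0 and 26.7 CPM in SAL-sired VTA, in order of rising Slc6a3. It climbed at every step in both groups, and the groups overlapped throughout. Its slope was 0.78 ± 0.03 (SE, n = 10 libraries), where a slope of 1 means that log2 CPM rises as fast as log2 Slc6a3.

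**Figure D1:**
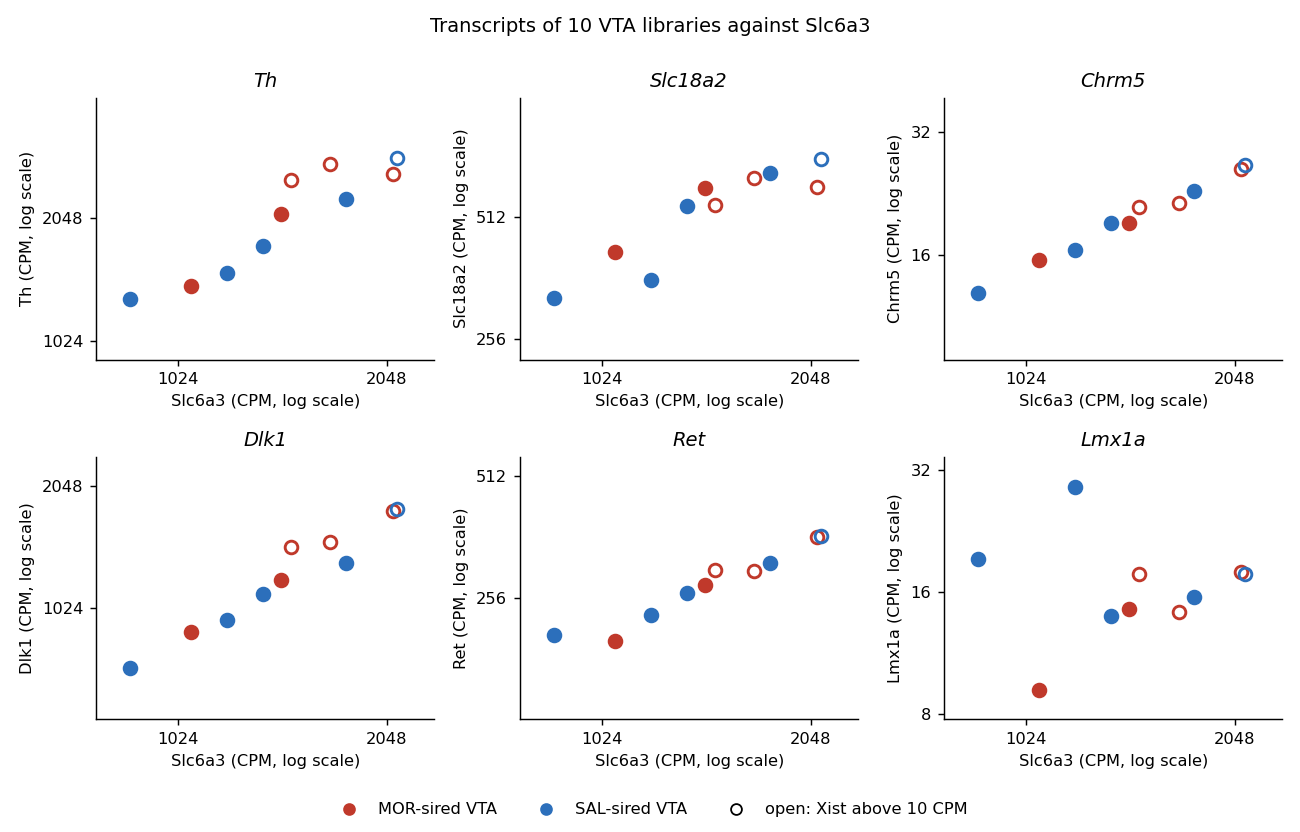
Level of 6 genes (y axis, CPM, log scale) against Slc6a3 (x axis, CPM, log scale) in 10 VTA libraries, with MOR-sired libraries in red, SAL-sired libraries in blue and the 4 libraries with high Xist as open circles. Th, Slc18a2, Chrm5, Dlk1 and Ret rose along Slc6a3 (r = 0.93, 0.91, 0.99, 0.97 and 0.97), while Lmx1a did not (r = 0.04).

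Ntsr1, the receptor of the peptide neurotensin, stood at 61.4, 83.4, 85.8, 104 and 114 CPM in MOR-sired VTA and at 58.2, 79.1, 73.7, 103 and 117 CPM in SAL-sired VTA. Ret, the signalling receptor for GDNF-family growth factors, had 201, 276, 301, 299 and 363 CPM in MOR-sired VTA and 208, 233, 264, 312 and 365 CPM in SAL-sired VTA. Drd2, which encodes the D2 autoreceptor of these neurons, had 99.9, 132, 143, 166 and 169 CPM in MOR-sired VTA and 80.2, 101, 115, 148 and 189 CPM in SAL-sired VTA. In each of these genes the lowest and the highest library of a group were also the lowest and the highest in Slc6a3. Chrna4, a nicotinic receptor subunit, had r = 0.97 and a slope of 0.69 ± 0.06. Gucy2c, a receptor guanylyl cyclase, had the lowest level of the 25 at 4.98 ± 1.24 CPM (SD, n = 10) and r = 0.96. Grik3, a kainate receptor subunit, and the G protein-coupled receptors Gpr26 and Gpr161 completed the receptors, with r of 0.96, 0.95 and 0.97.

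Dlk1, a membrane protein of the Notch ligand family, was the most abundant of the 25. It stood at 896, 1197, 1444, 1489 and 1769 CPM in MOR-sired VTA and at 730, 958, 1110, 1323 and 1798 CPM in SAL-sired VTA, rising at every step in both. It had the steepest slope of the 25, 1.01 ± 0.08, and Clptm1l the shallowest, 0.49 ± 0.05. Slc10a4, a vesicle protein of monoamine and cholinergic neurons, had 271, 367, 379, 465 and 466 CPM in MOR-sired VTA and 205, 267, 309, 380 and 483 CPM in SAL-sired VTA. The groups overlapped in both genes. Other vesicle genes were Sv2c, a synaptic vesicle protein (r = 0.97, slope 0.86 ± 0.07), Cadps2, a priming factor of dense-core vesicles (0.96, slope 0.79 ± 0.08), Chgb, a granule protein (0.96, slope 0.52 ± 0.05), and Erc2, a protein of the presynaptic active zone (0.96, slope 0.56 ± 0.06). Ntn1, the axon guidance cue netrin-1, had r = 0.97 and 87.6 ± 17.8 CPM (SD, n = 10). Prima1, the membrane anchor of acetylcholinesterase, had r = 0.95, and Pde2a, a cyclic nucleotide phosphodiesterase, had 0.97. Slc39a4, a zinc transporter, had r = 0.96 and was at 40.4 ± 11.4 CPM (SD, n = 10) in VTA. Bend5, Nrip3, Apba1 and Cnnm4 had r from 0.95 to 0.98.

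**Figure D2:**
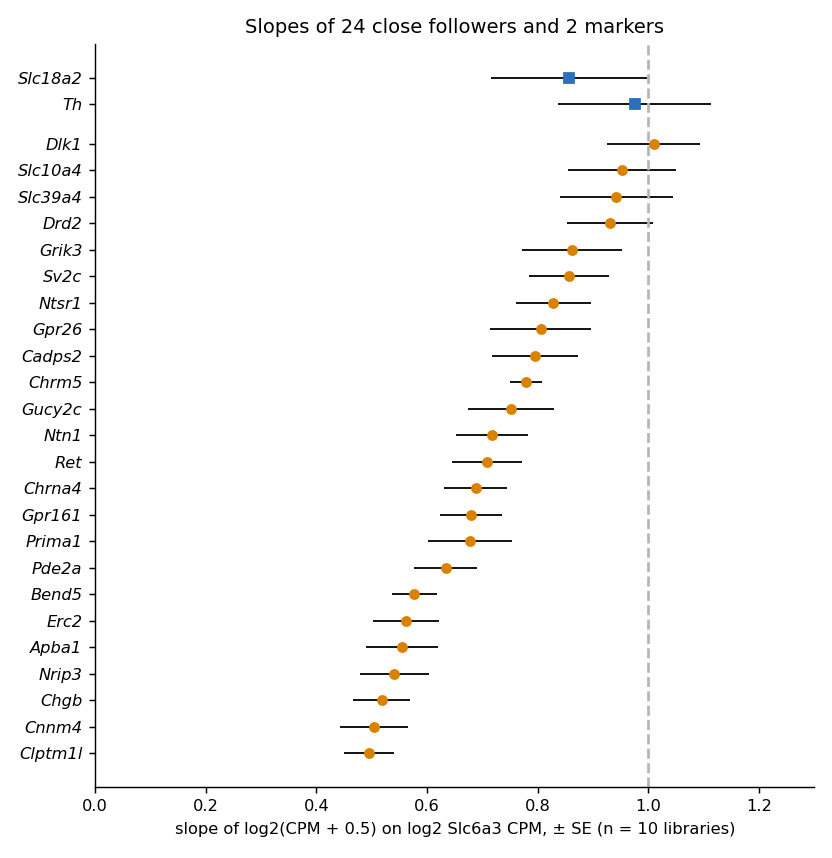
Slope of log2(CPM + 0.5) on log2 Slc6a3 CPM (x axis) with its standard error for 24 of the 25 closest followers in orange and the markers Slc18a2 and Th in blue, over 10 VTA libraries, with a dashed line at a slope of 1. Slopes ran from 0.49 for Clptm1l to 1.01 for Dlk1, against 0.97 for Th and 0.86 for Slc18a2.

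Over all 208 followers the slope ran from 0.14 for Vti1b, a SNARE protein, to 1.26 for Sp9, a zinc finger transcription factor, with a median of 0.54. It was at least 0.9 in 15 genes and under 0.5 in 90, and 5 genes had a steeper slope than Th. Set against the NAC, whose table was normalized separately and shares no library with this order, followers were on the whole more abundant in VTA. The log2 ratio of the mean level in VTA over that in NAC had a median of 0.68 among followers and 0.06 among all genes tested, and it was above 1 in 90 followers (43.3%), against 8.82% of all genes. It was below -1 in 19 followers (9.13%), against 6.96% of all genes. Steeper slopes went with a larger VTA over NAC ratio across the 208 genes (Spearman's rho = 0.45, a description across genes that share libraries). Chrna6 was at 240 ± 65.4 CPM in VTA (SD, n = 10) and averaged 0.0485 CPM in NAC, whereas Pde2a was at 99.4 ± 18.0 CPM in VTA and averaged 285 CPM in NAC.

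Among the genes of dopamine synthesis, storage and breakdown, 4 of 14 followed (Ddc, Gch1, Aldh1a1 and Sv2c), and the median r of the list was 0.50. Gch1, the first enzyme of tetrahydrobiopterin synthesis, which supplies the cofactor of Th, had 91.4, 123, 111, 115 and 134 CPM in MOR-sired VTA and 48.0, 69.9, 97.2, 96.2 and 127 CPM in SAL-sired VTA. Aldh1a1, an aldehyde dehydrogenase of ventral dopamine neurons, had 423, 450, 568, 814 and 732 CPM in MOR-sired VTA and 456, 349, 556, 980 and 945 CPM in SAL-sired VTA. Gchfr, the feedback regulator of Gch1, did not follow. It had 48.4, 59.7, 34.5, 40.9 and 27.3 CPM in MOR-sired VTA and 13.8, 18.1, 22.1, 13.2 and 27.0 CPM in SAL-sired VTA, with r of -0.69 in the MOR-sired and 0.50 in the SAL-sired libraries. Every MOR-sired value of Gchfr was above every SAL-sired value (log2 fold change 1.25, SE 0.27, edgeR adjusted p = 0.793). The share of all genes with such a separation was not counted. The summed level of the listed serotonin neuron genes did not overlap between sire groups either. It was 134 to 308 CPM in MOR-sired and 27.9 to 121 CPM in SAL-sired VTA. A link between Gchfr and the serotonin level was not tested, so no sire effect is read from Gchfr. The breakdown enzymes Maoa and Maob had r of 0.50 and -0.28.

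Of 12 transcription factors of dopamine neurons 4 followed, and the median r of the list was 0.73. Pitx3, a homeobox factor needed for these neurons, had 36.4, 43.6, 49.6, 55.7 and 57.9 CPM in MOR-sired VTA and 25.9, 36.1, 32.5, 55.2 and 63.0 CPM in SAL-sired VTA (r = 0.94). The others were Lmx1b (r = 0.88), En2 (0.85) and Bnc2 (0.81). Nr4a2, a nuclear receptor that drives Th in development, had r of 0.75 over all libraries, 0.85 in the MOR-sired and 0.83 in the SAL-sired ones, and En1, a homeobox survival factor, had 0.87 over all, 0.73 in the MOR-sired and 0.96 in the SAL-sired ones. Lmx1a, a homeobox factor of the midbrain floor plate, had r = 0.04. It stood at 9.20, 14.5, 17.7, 14.3 and 17.9 CPM in MOR-sired VTA and at 19.3, 29.1, 14.0, 15.6 and 17.7 CPM in SAL-sired VTA, highest in SAL-sired VTA 4 and 3.

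Of 18 genes that divide dopamine neurons into subtypes, 6 followed (Calb1, Aldh1a1, Ndnf, Tacr3, Cck and Slc10a4), and the median r was 0.45. Cck, a neuropeptide gene of VTA dopamine neurons, had 657, 799, 1004, 1111 and 1185 CPM in MOR-sired VTA and 623, 762, 883, 1136 and 1348 CPM in SAL-sired VTA, rising at every step in both groups. Calb1, a calcium-binding protein of dorsal VTA neurons, had r = 0.90, Ndnf, a secreted neurotrophic protein, 0.95, and Tacr3, the neurokinin B receptor, 0.88. Otx2, a homeobox factor of medial VTA neurons, did not follow, with r of 0.83 in MOR-sired and -0.08 in SAL-sired VTA, and Slc17a6 had 0.38 in MOR-sired and -0.91 in SAL-sired VTA.

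Receptors held the largest share of followers among these lists with more than 2 genes, 8 of 21, with a median r of 0.80. They comprised Drd2, Ret, Ntsr1, Gucy2c and the nicotinic subunits Chrna4 (r = 0.97), Chrna6 (0.95), Chrnb3 (0.94) and Chrnb2 (0.88), while the subunit Chrna5 had 0.79. Chrna6 stood at 190, 226, 230, 287 and 285 CPM in MOR-sired VTA and at 152, 179, 207, 271 and 375 CPM in SAL-sired VTA. Gfra1, the GDNF co-receptor that works with Ret, had r of 0.80 over all, 0.92 in MOR-sired and 0.87 in SAL-sired VTA, and missed the threshold over all 10 before rounding. Of 18 ion channels 5 followed (median r 0.63). Kcnn3, a small-conductance calcium-activated potassium channel, had 0.97, Kcnj6, the GIRK2 potassium channel, 0.89, Kcnd3, an A-type potassium channel, 0.89, Hcn3, a pacemaker channel, 0.91, and Cacna2d3, a calcium channel subunit, 0.81. Hcn2 had r of -0.28 and Cacna1d, the L-type channel of pacemaking, had -0.08. Of 21 vesicle and peptide-processing genes 4 followed, among them Chgb, Syt1 (r = 0.97) and Cplx2 (0.93), with a median of 0.44, whereas the granule protein Chga had -0.37. Without MOR-sired VTA 2, followers numbered 1 of 14 in the synthesis list, 2 of 12 transcription factors, 2 of 18 subtype genes, 8 of 21 receptors, 2 of 18 ion channels and 3 of 21 vesicle genes.

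**Figure D3:**
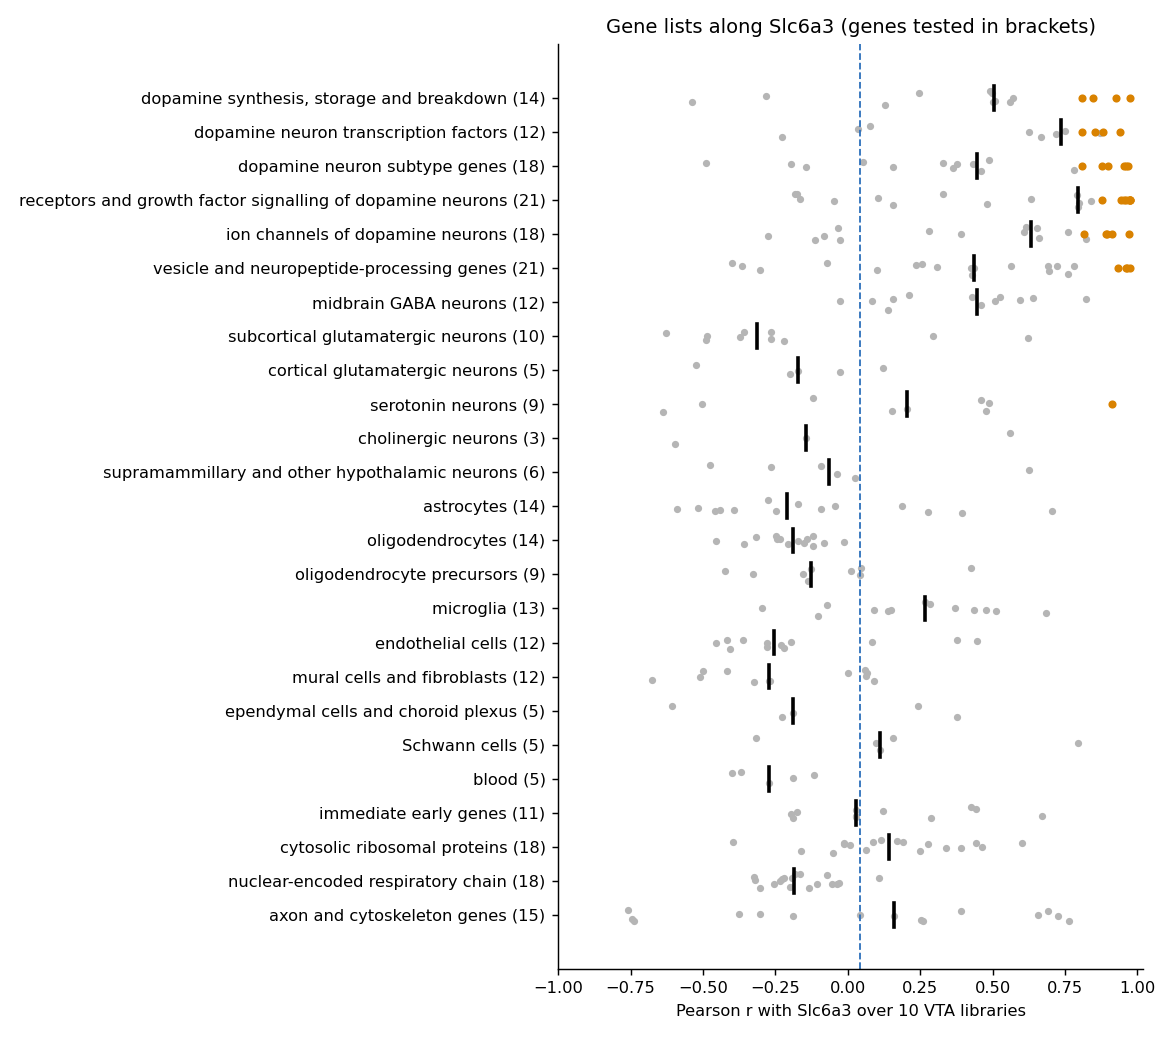
Pearson r with Slc6a3 over 10 VTA libraries (x axis) for each gene of 25 lists (rows, number of genes tested in brackets), with followers in orange, other genes in grey, the list median as a black bar and the median of all genes (0.04) as a dashed line. Receptors of dopamine neurons had a median of 0.80 and subcortical glutamatergic neuron genes one of -0.31.

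Lists of other cells held 1 follower in all, Ankk1 of the serotonin list (1 of 9 genes tested, r = 0.91), a kinase gene that lies beside Drd2. The share over all genes tested was 1.27% and these lists are short, so nothing is read from the count. With TMM scaling the Schwann cell list also held 1 follower of 5 genes tested. Several serotonin and GABA neuron genes had r of opposite sign in the sire groups. Tph2 had r of -0.62 in MOR-sired and 0.75 in SAL-sired VTA, Gad1 had -0.62 in MOR-sired and 0.83 in SAL-sired VTA, and Gad2 had -0.17 in MOR-sired and 0.89 in SAL-sired VTA. Others had the same sign in both groups, such as the serotonin receptor gene Htr1a (-0.69 in MOR-sired and -0.68 in SAL-sired VTA) and Pax5 of the GABA list (0.54 in MOR-sired and 0.94 in SAL-sired VTA). The 12 GABA genes had a median r of -0.18 in MOR-sired and 0.72 in SAL-sired VTA, and the difference was not tested. Subcortical glutamatergic genes had a median of -0.31 over all libraries, 0.42 in MOR-sired and -0.67 in SAL-sired VTA. All genes tested had medians of 0.45 in MOR-sired and -0.18 in SAL-sired VTA. With TMM scaling the glutamatergic medians were 0.13 in MOR-sired and -0.60 in SAL-sired VTA, against 0.12 and 0.14 for all genes. All 14 oligodendrocyte genes had a negative r, where 54.8% of all genes had a positive one. Their median was -0.19, and -0.05 with TMM scaling. The medians were -0.21 for 14 astrocyte genes, -0.25 for 12 endothelial genes and 0.27 for 13 microglial genes. The summed oligodendrocyte level was 27486 to 37373 CPM in MOR-sired and 25730 to 32742 CPM in SAL-sired VTA, and the summed serotonin level was 134 to 308 CPM in MOR-sired and 27.9 to 121 CPM in SAL-sired VTA. Their part in the followers' r was not tested.

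The number of genes that fell as Slc6a3 rose depended on the scaling. With r of at most -0.8 in all 3 sets there were 8 (0.049% of genes tested), of which 6 had a mean under 2 CPM and 1 also opposed Slc6a3 with TMM scaling. TMM scaling gave 22 such genes, DESeq2 size factors 32, and leaving out 1 library 5 to 92. Kcne5, an accessory subunit of potassium channels, was the most abundant, with 33.8, 33.1, 31.4, 31.3 and 24.9 CPM in MOR-sired VTA and 40.8, 34.1, 30.2, 33.1 and 29.8 CPM in SAL-sired VTA. Drd5, the D5 dopamine receptor, had 1.28, 0.949, 0.751, 0.612 and 0.647 CPM in MOR-sired VTA and 1.96, 2.24, 0.626, 0.534 and 0.443 CPM in SAL-sired VTA. The mean of Drd5, 1.004 CPM, passed the minimum of 1 CPM only through the libraries lowest in Slc6a3. Its fall is therefore partly fixed by that filter, and nothing is read from it. Htr1d, a serotonin receptor, had r = -0.84. With TMM scaling Kcne5, Drd5 and Htr1d no longer met the threshold, with r of -0.65, -0.79 and -0.73 over all libraries. Pvalb, the calcium-binding protein of fast-spiking neurons, came near the threshold (r = -0.78) at 166 ± 62.6 CPM (SD, n = 10).

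The same measure can be read in libraries that did not choose the genes. Of 925 genes with r of at least 0.8 in SAL-sired VTA (5.68% of 16273), 354 also reached it in MOR-sired VTA, which is 38.3%, against 12.5% of all genes. In MOR-sired VTA these 925 genes had a median r of 0.73, against 0.46 for all genes. Of the 2034 genes chosen in MOR-sired VTA, the same 354 reached it in SAL-sired VTA, which is 17.4%, against 5.68% of all genes. With TMM scaling 20.0% of the genes chosen in SAL-sired VTA reached it in MOR-sired VTA, against 8.06% of all genes.

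**Figure D4:**
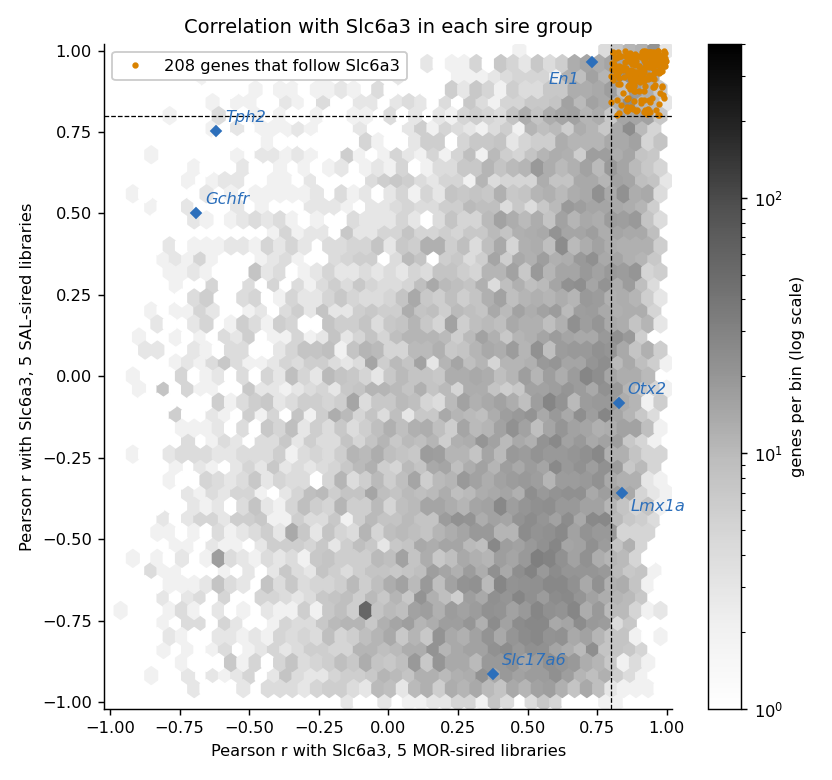
Pearson r with Slc6a3 in 5 MOR-sired libraries (x axis) against r in 5 SAL-sired libraries (y axis) for all genes tested, shaded by the number of genes per bin on a log scale, with the 208 followers in orange and dashed lines at 0.8. The cloud lies to the right of 0 in MOR-sired VTA (median 0.45) and below 0 in SAL-sired VTA (median -0.18), and the labelled dopamine, serotonin and glutamatergic genes lie outside the follower corner.

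The followers held their direction over subsets of the order. Over the 6 libraries with low Xist all 208 had a positive r, from 0.52, and 144 (69.2%) had at least 0.8, against 4.02% of all genes. After centring the libraries with high and low Xist, 124 of the 208 still followed. Over the 6 libraries above 30 M counts 205 (98.6%) reached 0.8, against 3.57% of all genes, and over the 4 libraries under 30 M 184 (88.5%) did, against 33.6%. These libraries also chose the genes, so the shares are a description.

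Sire groups did not differ beyond their spread in the dopamine neuron markers. Slc6a3 averaged 1559 ± 374 CPM in MOR-sired VTA and 1469 ± 489 CPM in SAL-sired VTA (SD, n = 5 each), a log2 difference of 0.12 (exact permutation test, two-sided, p = 0.690). Without SAL-sired VTA 3 it was -0.051, and without the 4 high-Xist libraries -0.025. Th averaged 2290 ± 560 CPM in MOR-sired and 1943 ± 642 CPM in SAL-sired VTA (log2 difference 0.26, exact p = 0.389), and Slc18a2 averaged 562 ± 86.1 CPM in MOR-sired and 518 ± 173 CPM in SAL-sired VTA (0.17, exact p = 0.516). Adjusted over the 3 genes each exact p was 0.690, and the smallest p that 5 against 5 libraries allow is 0.00794.

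Across 19923 genes, edgeR called 0 (0%) between sire groups at an adjusted p under 0.05, with 1058 (5.31%) at an unadjusted p under 0.05 and a smallest adjusted p of 0.223, while DESeq2 called 28. With log2 Slc6a3 CPM as a covariate, called the fit at equal Slc6a3, edgeR called 0 (0%) and DESeq2 called 34. In edgeR 1075 (5.4%) had an unadjusted p under 0.05, and the smallest adjusted p was 0.351. The covariate did not carry the TMM factors of the counts, so the match in Slc6a3 was approximate. Slc6a3 itself kept a log2 fold change of 0.096 (SE 0.066) in this fit. The smallest adjusted p was that of Cited1, a transcriptional co-activator (log2 fold change 0.99, SE 0.13). Cited1 stood at 11.0 ± 1.48 CPM in MOR-sired VTA and 5.87 ± 1.01 CPM in SAL-sired VTA (SD, n = 5 each). Cited1 did not travel with Slc6a3 (r = 0.15). Next came Senp5l1, Cyp2j3, Rhog, Cdk18, Stk32b, Rflna, Whrn, Zyx and Setsip, each with an adjusted p of 0.747 in edgeR. Cited1 is itself in the list of serotonin neuron genes. The summed level of that list did not overlap between sire groups, at 134 to 308 CPM in MOR-sired and 27.9 to 121 CPM in SAL-sired VTA. A link between Cited1 and the serotonin level was not tested, so no sire effect is read from Cited1.

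Among the followers, the median log2 fold change was 0.09 for sire group alone and 0.05 at equal Slc6a3, against -0.0065 and -0.0046 for all genes. With sire group alone 197 followers were higher in MOR-sired VTA and 11 lower, while 47.4% of all genes were higher. Followers were chosen to track Slc6a3, so they are not free to differ from the sign of its difference between sire groups. That difference was 0.16 (SE 0.24) in this edgeR fit. By plain CPM it was 0.12 and turned to -0.051 without SAL-sired VTA 3. Its part in the 197 and 11 was not tested, and no sire effect is read from them. An unadjusted p under 0.05 was found for 4 followers (1.92%), Ntf3, Jup, Dmrtb1 and Garnl3, all higher in MOR-sired VTA. At equal Slc6a3, 165 were higher and 43 lower, against 48.3% of all genes higher, and 31 (14.9%) had an unadjusted p under 0.05, all higher in MOR-sired VTA. The choice of genes by r with Slc6a3 fixes a small error in this fit, so nothing is read from that count. Slc6a3 itself kept a log2 fold change of 0.096 (SE 0.066) in this fit, whose covariate did not carry the TMM factors of the counts. No sire effect is therefore read from the median of 0.05 or from the 165 and 43. No follower was called in either fit (smallest adjusted p 0.928 for sire group alone and 0.747 at equal Slc6a3, edgeR). Followers vary together, so these counts are not independent. Ntf3, the growth factor neurotrophin-3, had a log2 fold change of 0.46 (SE 0.20) for sire group alone and 0.41 (SE 0.09) at equal Slc6a3. Gch1 had 0.47 (SE 0.22) for sire group alone and 0.44 (SE 0.12) at equal Slc6a3. The edgeR adjusted p of Gch1 was 0.949 for sire group alone and 0.747 at equal Slc6a3. The choice by r also makes the SEs of Ntf3 and Gch1 small at equal Slc6a3, so no sire effect is read from these values.

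**Figure D5:**
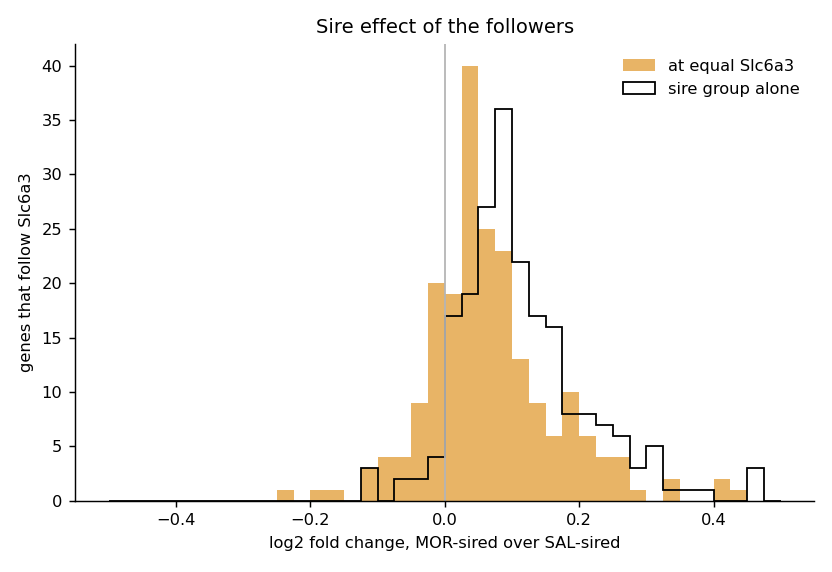
Number of the 208 followers (y axis) by log2 fold change of MOR-sired over SAL-sired VTA (x axis), at equal Slc6a3 (filled) and for sire group alone (outline), with a grey line at 0. The median is 0.05 at equal Slc6a3, where Slc6a3 itself had 0.096, and 0.09 for sire group alone.

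The slope on Slc6a3 was compared between sire groups by an interaction term. Of 19923 genes edgeR called 0 (0%), with 741 (3.72%) at an unadjusted p under 0.05 and a smallest adjusted p of 0.782, and DESeq2 called 11. Among followers the slope was lower in MOR-sired VTA in 175 and higher in 33, with a median difference of -0.16, while 50.8% of all genes had a higher slope in MOR-sired VTA, and 18 (8.65%) had an unadjusted p under 0.05, all lower in MOR-sired VTA. The followers were chosen by their r within both groups compared here, so these counts are a description. Slc6a3 itself had a slope difference of -0.27 (SE 0.16) in this fit, whose covariate did not carry the TMM factors of the counts. No difference in slope between sire groups is therefore read from the followers' counts or median. The slope difference was -0.77 (SE 0.24) for Gch1 and -0.66 (SE 0.26) for Slc18a2, with adjusted p of 0.990 for both in edgeR. The genes with the smallest p were Mirlet7b, Fbln2, Snord71, Mx1 and Pcdh20, none of them a follower.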

How the data were processed

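Per the file names and the values, the deposited estimated counts were made by the authors by scaling transcript abundances to the library total, so they are on a per-length scale. Per the submitters' processing notes, Trim Galore, kallisto and DESeq2 were used, with no versions. Neither genome build nor annotation is given in the sources used here. All 37403 identifiers matched RefSeq. VTA totals were 23.6 to 43.5 M, and no counting interval can be had from scaled estimates.

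CPM is the estimated count over the library sum times 1e6. Pearson r used log2(CPM + 0.5) of the 16318 genes with a mean of at least 1 CPM. Rounded counts of genes kept by filterByExpr were tested with edgeR 4.0.16 (R 4.3.3, TMM factors, quasi-likelihood, Benjamini-Hochberg adjustment, called under 0.05, two-sided), with DESeq2 1.42.0 as the alternative. The SE of an edgeR log2 fold change was taken as its size divided by the root of the F statistic. The Slc6a3 covariate was log2 CPM without TMM factors. The fits were tested on simulated data. Named genes are the listed dopamine neuron genes, the 25 followers whose smallest r was largest, the 12 opposing genes by the same rule, the 3 on each side of the threshold, the smallest p-values of each fit (5 followers for the sire effect, 10 genes at equal Slc6a3, 5 genes for the slopes), and up to 4 genes of other lists. The members and lists were chosen with earlier results of these data known. Same-numbered libraries of the sire groups did not deviate together and were not paired. Some listed genes are not reported here.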

Additional observations from a re-analysis of the deposited data

Results flagged for a closer look

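Among 82 sets of 5 libraries looked at for a library that stood apart from the other 4, 7 were found, where chance gives about 5% of such sets. All 7 were sets of the 12 genes that oppose Slc6a3 or come nearest to it. These genes were chosen by their r in the same libraries, so the 5% is not a fair measure for them. Kcne5 stood at 24.9 CPM in MOR-sired VTA 3, below the 31.3 to 33.8 CPM of the other MOR-sired libraries. Tppp2 stood at 2.00 CPM in SAL-sired VTA 3, above 0.958 to 1.20 CPM in the other SAL-sired libraries. Sdr9c7 was at 3.34 CPM in the same library, above 2.38 to 2.60 CPM in the other SAL-sired libraries. The microRNA precursor Mir342 was at 6.56 CPM in MOR-sired VTA 2 and at 9.87 CPM in SAL-sired VTA 3, and at 0 in the others. Mirlet7i was at 7.00 CPM in MOR-sired VTA 2 and at 4.67 CPM in SAL-sired VTA 3, and at 0 in the others. SAL-sired VTA 3 and MOR-sired VTA 2 were the lowest libraries of their groups in Slc6a3.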

How the results depend on the processing

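The number of genes that follow Slc6a3 was 208. It was 66 at r of at least 0.9, 130 after centring the libraries with high and low Xist, and 656 over the 6 libraries with low Xist, where no condition within sire groups applied. Leaving out 1 library gave 95 (without MOR-sired VTA 2) to 317 (without SAL-sired VTA 4). The 8 opposing genes became 22 with TMM scaling, 32 with DESeq2 size factors, 1 at a mean of at least 5 CPM, 38 with 1 count in at least 5 libraries, 16 by Spearman's rho, 0 at the stricter r, 180 over the 6 low-Xist libraries, 4 after centring by Xist, and 5 to 92 leaving out 1 library. Of genes chosen in SAL-sired VTA, the share seen in MOR-sired VTA was 20.0% with TMM scaling and 22.3% by rho, against 38.3%. DESeq2 called 28 genes for the sire effect, 34 at equal Slc6a3 and 11 for the slope, where edgeR called 0 each; edgeR also called 0 in both sire fits without the 4 high-Xist libraries, an alternative added after seeing the data. Leaving out 1 library gave 0 to 1 slope calls, the 1 without MOR-sired VTA 4 (adjusted p = 0.00478, edgeR). The Slc6a3 difference of 0.12 was -0.051 to 0.27 leaving out 1 library and -0.025 without the 4 high-Xist libraries. The causes of these shifts were not tested. With the replicate number as a block (a replicate block over pairs that share only a number; correlations -0.128 to 0.132), edgeR called 0 genes in both sire fits, and the exact paired test of Slc6a3 gave p = 0.8125. For Th, Slc18a2, the 25 closest followers and the 12 opposing or nearly opposing genes (39 genes, 507 values of r), 477 values stayed on their side of the threshold and 30 did not, 0 of the 30 among the 25 closest followers, and 0 values of genes past the threshold changed sign. Over 133 named genes, the range of r over all libraries when leaving out 1 spanned 0 in 21, such as Lmx1a (-0.33 to 0.29), Gchfr (-0.24 to 0.33), Cacna1d (-0.47 to 0.34) and Cpe (-0.56 to 0.40), and in 0 of the 25. For low genes the scaled counts limit precision.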

Other observations

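Other followers, named here after their values were seen, held groups of genes that the report does not describe. No follower named in this section is in the group of 66 that kept its place in all sets and scalings. Their place among the followers thus depends on single libraries or on the scaling. Peptide and hormone receptors included Ghsr, the ghrelin receptor, at 10.6 ± 2.94 CPM (SD, n = 10) with r = 0.91 and a mean of 0.11 CPM in NAC, and Mc3r, a melanocortin receptor, at 20.5 ± 5.04 CPM with r = 0.88 and a mean of 0.11 CPM in NAC. Growth factors included Fgf1 (101 ± 22.3 CPM, r = 0.84), Fgf20 (8.63 ± 2.71 CPM, r = 0.89) and Ntf3 (9.40 ± 2.40 CPM, r = 0.86). Among axon guidance genes were Slit1 (46.9 ± 9.69 CPM, r = 0.96) and its receptor gene Robo2 (33.7 ± 4.91 CPM, r = 0.81).

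Pdyn, the precursor gene of dynorphin opioid peptides, followed Slc6a3 (r = 0.86, slope 1.09 ± 0.23 SE) at 7.08 ± 2.50 CPM in VTA, where NAC averaged 182 CPM. Sp9, which had the steepest slope, was at 2.51 ± 1.05 CPM in VTA and averaged 27.9 CPM in NAC.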
